A study of Homo sapiens with 14 samples.

Results

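MYC is a transcription factor that drives cell growth and proliferation, and it binds DNA as a pair with MAX. MAX also pairs with MXD1, MXI1 and MNT, which repress genes that MYC activates, and with MGA, a large repressor that belongs to a Polycomb complex. MYC mRNA is short-lived, and proteins that read N6-methyladenosine (m6A), among them the IGF2BP and YTHDF families, are known to bind it. The m6A of these mRNAs was examined adenosine by adenosine in 14 GLORI libraries of polyadenylated RNA. GLORI turns adenosine without the methyl group into a base that sequences as G, whereas m6A still sequences as A. The share of A among the A and G reads at an adenosine, in percent, is its m6A level.

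Each of 6 human cancer cell lines had 2 libraries after 24 h with DMSO, the solvent: 4 of ovarian carcinoma (CAOV3, COV644, EFO21, SKOV3), the lung carcinoma line A549 and the oesophageal carcinoma line OE21. CAOV3 had 2 more libraries after 24 h with 1 uM STM3675, in a series about inhibiting METTL3, the catalytic subunit of the main mRNA m6A methyltransferase. Nothing in the labels says whether the 2 libraries of a group came from separate cultures, so the spread between them may be technical. The sites were chosen by the gene name that the deposited table gives them, and 156 of its 407343 sites carry the names of these genes. MYC has 44, MNT 34, MAX 29, MXD1 27 and MXI1 22, while the name MGA has 0. Of the 156 sites, 64 lie in DRACH, the 5-base motif in which METTL3 methylates the central adenosine (D is not C, R is A or G, H is not G), and all but 31 lie in a last exon.

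The libraries held 14047302 to 28663588 A or G reads at the listed sites. Outside DRACH, where little m6A is known, the median level was 3.85% to 4.88% in COV644 and OE21, 10.6% to 14.3% in the other DMSO libraries and 9.09% with STM3675. The squamous genes TP63, KRT5, KRT6A, KRT14 and SOX2 were highest in OE21, and PAX8, a marker of ovarian carcinoma, was highest in SKOV3, EFO21 and CAOV3 but not above OE21 in COV644 (18.7 against 20.5 CPM, reads at listed sites scaled to a common total). SOX17, also an ovarian marker, was at 53.6 CPM in COV644, 189 in EFO21 and 67.4 in SKOV3, but at 3.68 in CAOV3. It was at 1.69 in A549 and 0.259 in OE21. Of the other defining markers, the lung gene NKX2-1 stood at 0.105 CPM in A549, 16.6 in COV644 and 11.0 in OE21. The ovarian marker WT1 was highest in A549, at 8.04, against 1.45 in OE21 and 1.54 or less in the 4 ovarian lines. EMX2, another ovarian marker, was at 40.1 in EFO21 and 0.255 or less elsewhere. PECAM1, an endothelial gene, was at 489 in EFO21, and COL1A1, a fibroblast gene, reached 129 in COV644. Of the epithelial genes, EPCAM was at 3.27 in A549, KRT8 at 1.22 in OE21, and CDH1 at 8.10 in EFO21 and 6.25 in SKOV3. MUC16, SFTPB, NAPSA, PTPRC and DCN have no listed site, so their level is unknown.

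Sites are given by exon and by nucleotide (nt) into the exon. The 5 bases around a site, with the measured adenosine in capitals, show which sites of the partners sit in the METTL3 motif. The 4 that follow are the most methylated DRACH sites of MAX, MXD1, MXI1 and MNT in CAOV3 with DMSO.
MAX exon 5, nt 283: agAct
MXD1 exon 6, nt 256: ggAcc
MXI1 exon 6, nt 662: ggAca
MNT exon 6, nt 969: agAct
Longer context is shown for the 3 MAX sites of exon 1, which fall outside DRACH, as the member sites that the RefSeq promoter windows used here cover. They stand at -82, -61 and -43 nt from the gene start that RefSeq gives, yet the deposited table places them in exon 1. The annotations thus differ in where the gene starts, and the negative values do not place these sites outside the mRNA. The sequence is from RefSeq (GRCh38.p14, minus strand of chromosome 14), and its central 5 bases are those of the deposited table.
MAX chr14:65102355-65102375: ccgccgctgcAgtggccgctc
MAX chr14:65102334-65102354: cctgggccgtAggaaatgagc
MAX chr14:65102316-65102336: agcgataacgAtgacatcgag

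MYC (ENSG00000136997) is on the plus strand of chromosome 8. In GRCh38 its sites lie in a first exon at 127736231 to 127736623, an internal exon at 127738248 to 127739019 and a last exon that ends 1823 nt after the site at 127741128. The table lists 10 sites in exon 1, 9 in exon 2 and 25 in exon 3, and 20 of the 44 are in DRACH. Listing requires 20 reads and a level of 25% in at least 1 DMSO library, and 29 MYC sites met it in a single line while 10 met it in all 6 lines.

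The first comparison asked how m6A of these mRNAs differs in CAOV3 between STM3675 and DMSO. MYC m6A fell from 61.4% ± 1.7 with DMSO to 12.2% ± 0.61 with STM3675 (SD, n = 2), taken over the reads of its 17 sites that had at least 20 reads in each of the 4 libraries. The 4 libraries gave 62.6%, 60.2%, 12.6% and 11.7%. MAX fell from 49.9% ± 2.3 to 9.97% ± 1.5, and MNT from 29.0% ± 3.6 to 5.73% ± 0.47. MXD1 fell from 21.9% ± 0.29 to 6.55% ± 0.49 and MXI1 from 27.7% ± 1.1 to 8.54% ± 0.12. These levels include sites outside DRACH, which are 13 of the 19 in MXD1 and 5 of the 17 in MYC. Over DRACH sites only, the difference was -62.1 percentage points for MYC, -45.6 for MAX, -46.3 for MXD1, -25.7 for MXI1 and -26.0 for MNT. For MYC both STM3675 libraries lay far below both DMSO libraries.

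The quasi-binomial model over all genes, with Benjamini-Hochberg adjustment, gave adjusted p = 6.0e-14 for MYC, 1.3e-14 for MAX, 1.7e-08 for MXD1, 1.4e-05 for MXI1 and 1.2e-07 for MNT. A fall was called in 9167 of 11221 genes (81.7%), and a rise in 7 (0.0624%), so 5 falls of 5 is near what the rest of the transcripts did. A median gene had 29.3% with DMSO and a difference of -20.1 percentage points, against -49.2 for MYC and -39.9 for MAX, whose levels with DMSO were above the third quartile of genes (41.1%). The listing used the CAOV3 DMSO libraries but not the STM3675 ones, which by itself raises the DMSO level of a site. Over the sites that met the limits in another line, the difference was -59.1 for MYC, -54.2 for MAX, -15.5 for MXD1, -22.7 for MXI1 and -23.7 for MNT.

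**Figure D1:**
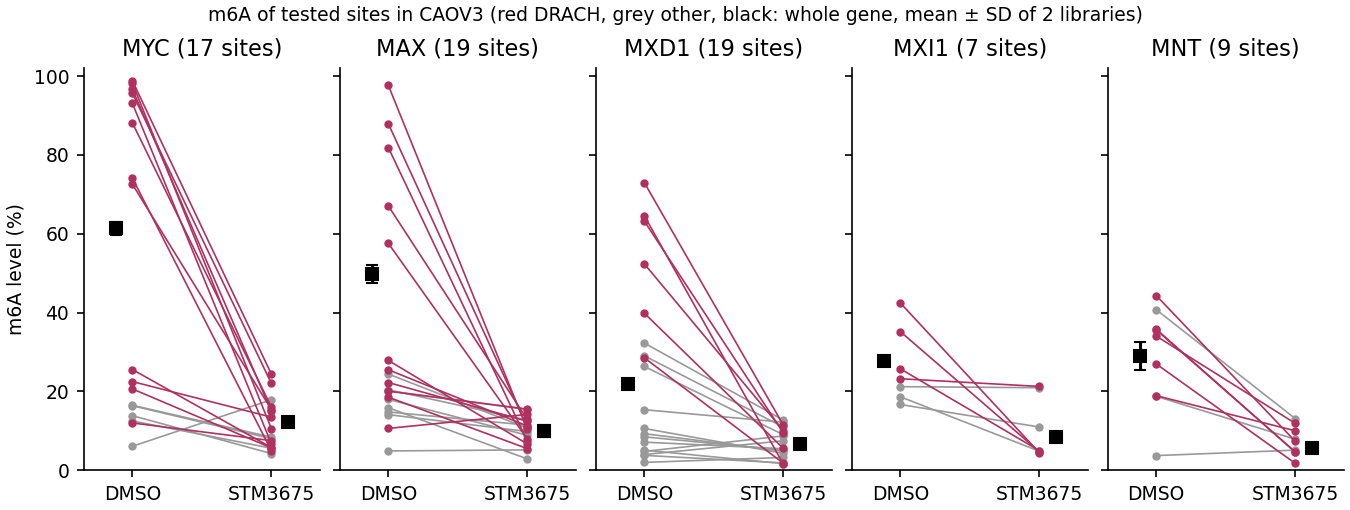
m6A level (%) of each tested site in CAOV3 with DMSO and with STM3675, as the mean of 2 libraries, in red for DRACH and grey for other sites; black squares are the level over all tested reads of the gene, mean ± SD. The steep lines are DRACH sites that start at 50% or more, 17 in MYC, MAX and MXD1, and end below 25%.

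Site by site, 71 of the 156 sites could be tested, 39 of them in DRACH, and the other 85 had fewer than 20 reads in some CAOV3 library. Of the 71, 33 were called lower (35.2% of all tested sites were) and 0 higher (0.309%). Of the 39 in DRACH, 31 were lower, against 73.9% of all tested DRACH sites, and 2 of 32 were lower outside DRACH, against 7.87%. All 17 DRACH sites that stood at 50% or more with DMSO were lower, as were 99.9% of such sites. Both STM3675 libraries were below both DMSO libraries at 48 of the 71 sites, against 49.6% of all tested sites. Limma, on log2 ratios of A to G reads, called 27 of the 71 lower, beside 52900 of 185923 over all tested sites. Without either STM3675 library, fewer were called, both of the member sites and of all sites.

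In MYC, 10 of the 12 tested DRACH sites were lower and 0 of the 5 others. Of these DRACH sites, 8 are highly methylated, and the cluster between nt 496 and nt 733 of exon 3 holds 6 of those 8. The m6A level that was left with STM3675 was a median 0.168 of the DMSO level at these 8 sites (0.067 to 0.247), against 0.157 over all 29059 DRACH sites at 50% or more.

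The only MYC site of the internal exon in this class, exon 2 nt 410, had 100% and 96.4% with DMSO and 5.76% and 15.4% with STM3675. Its level fell by 87.6 percentage points (adjusted p = 2.4e-36), the largest change among the tested MYC sites. It had 46 to 139 reads per library.

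Toward the start of exon 3, nt 226 had 72.2% and 76.0% with DMSO and 7.63% and 2.27% with STM3675 (adjusted p = 1.2e-22). At nt 496 the levels were 91.7% and 84.6%, then 12.5% and 19.6% (adjusted p = 1.1e-13). At nt 550 they were 93.3% and 92.9%, then 8.89% and 4.55% (adjusted p = 7.9e-21). The 4 libraries thus fell into 2 groups far apart at each of these sites. Further along, nt 621 had 91.3% and 100% with DMSO and 23.3% and 20.8% with STM3675 (adjusted p = 1.2e-13). Of the 8 sites, nt 676 had the DMSO libraries furthest apart, with 61.1% and 84.0%, against 12.8% and 18.0% with STM3675 (adjusted p = 1.1e-11).

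The deepest MYC sites are 17 nt apart in the last exon. At 127741111 (nt 716) the level was 98.9% (95% Wilson interval 94.2% to 99.8%) and 98.7% (93.0% to 99.8%) with DMSO. With STM3675 it was 21.6% (16.3% to 28.0%) and 27.2% (20.7% to 34.9%), the highest remaining level among the tested DRACH sites of MYC (adjusted p = 5.2e-41). At 127741128 (nt 733) it was 96.1% and 97.3% with DMSO, and 19.1% (14.2% to 25.4%) and 10.8% (6.87% to 16.7%) with STM3675 (adjusted p = 1.5e-61). The STM3675 libraries of both sites are far under the DMSO ones. These intervals cover counting error only, since PCR copies of a read are not separate molecules. The model gave all sites a common spread, so its smallest adjusted p-values, here and elsewhere, rest on reads more than on libraries. By limma, nt 716 and nt 733 each had adjusted p = 0.0041.

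The remaining 4 DRACH sites of MYC in CAOV3 were lowly methylated and gave weaker evidence. At exon 3 nt 701 the levels were 19.6% and 21.7% with DMSO and 5.51% and 5.81% with STM3675 (adjusted p = 0.0067), a call that was lost when any 1 of the 4 libraries was left out (adjusted p 0.056 to 0.127). Exon 3 nt 533 had 26.1% and 25.0%, then 11.5% and 0% of 47 reads (interval up to 7.56%). That call (adjusted p = 0.047) did not hold in any other analysis that could test it (adjusted p 0.0528 to 0.344). Exon 3 nt 539, with 15.6% and 8.33% against 8.22% and 6.78%, was not called (adjusted p = 0.62).

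The exon 1 site at nt 323 had 32.1% and 12.8% with DMSO and 15.6% and 11.3% with STM3675 (adjusted p = 0.51). Its DMSO libraries lay on both sides of the 25% limit, and without DMSO replicate 1 the difference turned to 0.64 percentage points. None of the 5 sites outside DRACH was called. One of them, exon 2 nt 575, was higher in both STM3675 libraries (0% of 26 reads and 12.1% with DMSO, 21.4% and 14.3% with STM3675, adjusted p = 0.20).

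**Figure D2:**
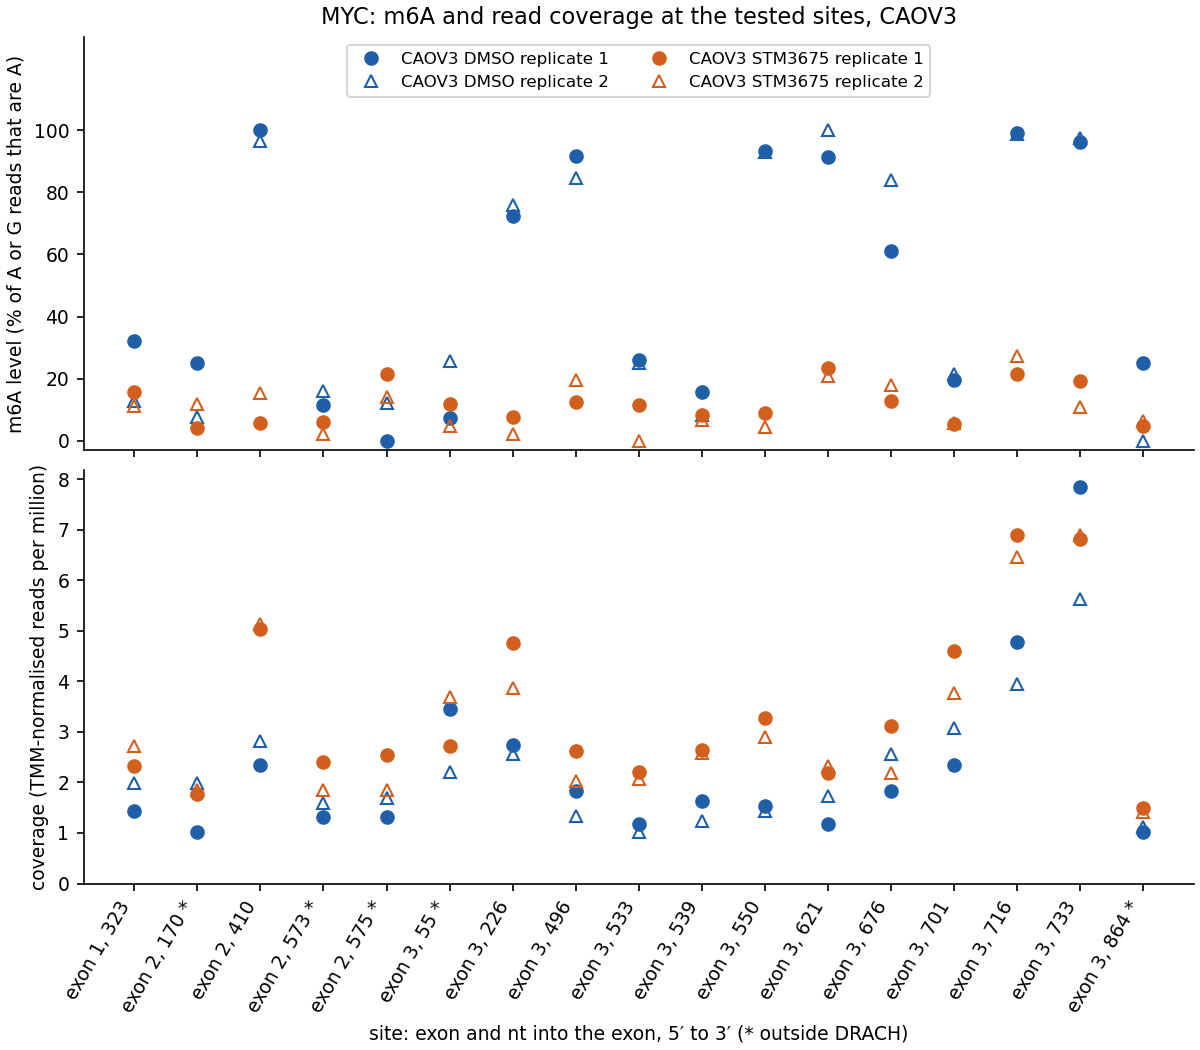
m6A level (top) and coverage in TMM-normalised CPM (bottom) of the 17 tested MYC sites, 5′ to 3′, with each of the 4 CAOV3 libraries as a point. The 8 highly methylated sites drop from above 60% to below 28%, and coverage is higher with STM3675 at 13 sites in both libraries.

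MAX (ENSG00000125952) has 25 of its 29 sites in its last exon, and all 8 of its called falls are there. At 65076381 (nt 283) the level was 97.8% and 97.5% with DMSO and 13.2% and 7.50% with STM3675 (adjusted p = 4.5e-85). At nt 216 it was 81.0% and 82.7%, then 4.36% and 10.5% with 295 to 369 reads per library (adjusted p = 2.2e-111). At nt 610 it was 88.6% and 87.2%, then 9.79% and 12.2% (adjusted p = 1.3e-68). The groups were far apart at each of these 3 deep sites. The fourth highest, nt 784, had 20 to 24 reads per library, with 59.1% and 75% against 8.33% and 17.4% (adjusted p = 0.00012). Its call was lost in 2 other analyses and kept in 5. The 2 exon 1 sites that could be tested, printed above around 65102365 and 65102326, were not called, with 18.0% ± 5.2 against 8.85% ± 1.6 and 24.4% ± 1.9 against 10.7% ± 0.054 (adjusted p = 0.33 and 0.22).

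MXD1 (ENSG00000059728, chromosome 2), a repressor linked to differentiation, has all 27 sites in its last exon. Its 6 tested DRACH sites were all lower, and they lie within the first 802 nt of an exon of 4849 nt. Exon nt 256 had 84.6% and 61.4% with DMSO and 10.0% and 13.0% with STM3675 (adjusted p = 3.4e-10). At nt 31 the levels were 66.7% and 62.5%, then 0% of 25 reads and 3.12% (adjusted p = 3.5e-09). At nt 410 both DMSO libraries gave 63.2%, and those with STM3675 gave 9.62% and 9.38% (adjusted p = 1.5e-09). The site at nt 52 had 62.8% and 41.9%, then 5.41% and 14.7% (adjusted p = 2.0e-05). Its call was lost in 3 other analyses and kept in 4. One site outside DRACH, nt 344 in the letters ggAtt, was also lower, with 32.3% ± 3.6 against 12.7% ± 4.6 (adjusted p = 0.0059).

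MXI1 (ENSG00000119950, chromosome 10), a close relative of MXD1, had 3 of 4 tested DRACH sites lower. At exon 6 nt 662 the level was 44.4% and 40.5% with DMSO and 5.08% and 3.85% with STM3675 (adjusted p = 4.6e-06). At nt 1629 it was 42.0% and 28.4%, then 3.12% and 6.35% (adjusted p = 1.2e-06). The weakest call was nt 753, with 28.1% and 23.3%, then 8.16% and 1.79% (adjusted p = 0.0079). That call was lost in 5 other analyses and kept in 2, while nt 1629 was lost in 1 and kept in 7. In contrast to these 3 sites, nt 464 in ggAca had 31.0% and 15.4% with DMSO and 17.5% and 25.0% with STM3675, overlapping groups (adjusted p = 0.87).

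MNT (ENSG00000070444, chromosome 17, minus strand), the most broadly expressed of the repressors, had 4 of 6 tested DRACH sites lower and 1 site outside DRACH. At exon 6 nt 969 the level was 46.3% and 42.3% with DMSO and 4.00% and 10.7% with STM3675 (adjusted p = 0.00086). This call was lost in 3 other analyses and kept in 4. At nt 3340 the level was 38.2% and 33.3%, then 6.17% and 3.03% (adjusted p = 4.4e-07). The site at nt 3305 had 23.1% and 48.1%, then 5.45% and 3.85% (adjusted p = 0.0011), a call also lost in 3 and kept in 4. The DMSO libraries of nt 2829 were as far apart, at 23.1% and 45.0%, against 10.0% and 13.8% with STM3675, and it was not called (adjusted p = 0.15).

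For MGA, the table has 158 sites with no gene name on the plus strand within the interval that RefSeq gives the gene (chromosome 15, 41621224 to 41769940). Their assignment by position was made after the table was seen, and the interval also touches LOC105370791 and MIR626. Of them 72 lie in DRACH, and 57 could be tested, of which 28 were lower (35.2% of all tested sites were) and 0 higher. In DRACH, 22 of 31 tested sites were lower, against 73.9% of all tested DRACH sites, and the mean level of the 31 went from 45.2% with DMSO to 7.86%. Over the 57 sites the libraries gave 34.3% and 38.6% with DMSO and 7.62% and 9.13% with STM3675. The groups do not overlap, as in the 5 named genes.

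The second comparison asked how the m6A of these genes differs among the 6 lines with DMSO. MYC was at nearly one level: COV644 had 65.8% ± 1.4, CAOV3 65.7% ± 1.6, SKOV3 65.6% ± 4.0, A549 64.8% ± 0.60, EFO21 64.6% ± 0.0095 and OE21 62.3% ± 0.88 (SD, n = 2), over 15 sites with at least 20 reads in all 12 libraries. Neighbours in this order overlap or lie within the spread of the 2 libraries, except EFO21 and OE21. The range of 3.49 percentage points compares with a median range of 11.3 over all genes and 9.87 over the 2467 genes with 10 or more sites.

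The test over the 6 lines did not call MYC (adjusted p = 0.061, quasi-binomial model), while 62.5% of genes were called. It became a call without CAOV3 replicate 1 (range 4.34, adjusted p = 0.0324), without SKOV3 replicate 1 (range 6.22, adjusted p = 0.0184) and without SKOV3 replicate 2 (range 3.49, adjusted p = 0.0454). OE21 was lower than the mean of the other 5 lines by 3.03 points (62.3% against 65.3%, adjusted p = 0.0071), a direction called for 43.5% of genes in that line. This difference was not called without COV644 replicate 1 (-1.26, adjusted p = 0.28) or OE21 replicate 1 (-2.41, adjusted p = 0.0789), by limma (adjusted p = 0.176), or with a minimum of 10 reads (-1.82, adjusted p = 0.0911) or 50 reads (-0.0066). OE21 and COV644 are also the lines with the low median outside DRACH, and the part of that background in these differences was not tested.

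None of the 8 highly methylated sites of MYC was called over the lines. Those near 100% have little room to differ. Exon 2 nt 410 of MYC ranged from 97.8% to 98.6% over the line means, nt 716 of exon 3 from 97.2% to 98.8%, and nt 733 from 93.7% to 96.7%. Of the others, nt 226 ranged most, from 73.8% ± 4.8 in OE21 to 84.9% ± 1.9 in COV644 (adjusted p = 0.37), followed by nt 550 with a range of 7.01 points, nt 676 with 6.48 and nt 496 with 6.02. The 3 MYC sites of 15 that were called are all lowly methylated, and 2 of them lie outside DRACH (39.5% of all tested sites were called). The exon 1 site at nt 323 had 22.5% ± 14 in CAOV3, 20.6% ± 3.0 in SKOV3 and 20.6% ± 0.86 in A549, against 8.22% ± 0.16 to 11.0% ± 0.95 in COV644, EFO21 and OE21 (adjusted p = 0.0015). The sites outside DRACH at exon 3 nt 55 and nt 864 ranged over 12.1 and 11.2 points (adjusted p = 0.0047 and 0.0054). Each of the 3 was highest in CAOV3, whose libraries were also the furthest apart. In CAOV3 each met the 25% listing limit in 1 library only, at 32.1%, 25.6% and 25.0%. The listing thus drew on the line in which these sites were highest, which favours such a difference.

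Some MYC sites that were too shallow in CAOV3 were well covered elsewhere. Exon 3 nt 196, in DRACH, met the listing limits in 10 of 12 DMSO libraries, with 69.3% and 71.4% in A549, 73.2% and 71.4% in EFO21 and 75.6% and 72.0% in OE21. Exon 1 nt 236, also in DRACH, met them in 8, with 40.8% and 46.5% in A549, 38.5% and 46.7% in EFO21 and 54.5% and 39.0% in OE21. Exon 1 of MYC thus holds a DRACH site of intermediate level in these 3 lines.

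MAX differed among the lines more than MYC. COV644 had 56.6% ± 0.96, EFO21 54.9% ± 0.84, CAOV3 52.9% ± 2.3, SKOV3 49.7% ± 0.46, OE21 46.1% ± 2.1 and A549 45.5% ± 0.29 (range 11.1, adjusted p = 3.5e-05). OE21 and A549 overlap, as do CAOV3 and EFO21, while all COV644 libraries are above all libraries of the other 5 lines. Of its 12 tested sites 7 were called, 6 of them in DRACH (39.1% of all tested DRACH sites were called). The site at exon 5 nt 625, in gaAct, carried the widest range, from 41.9% ± 3.6 in A549 through 50.7% ± 5.2 in SKOV3 to 70.9% ± 1.0 in COV644 and 71.1% ± 0.046 in EFO21 (adjusted p = 1.0e-14). The order of the lines was similar at its neighbour nt 610, with 77.3% ± 5.4 in A549 and 94.6% ± 2.9 in EFO21.

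At exon 5 nt 61, MAX stood at 25.3% ± 4.4 in SKOV3 and 4.89% ± 0.94 in OE21 (adjusted p = 0.0058). Outside DRACH, nt 499 ranged from 2.50% ± 3.5 in COV644 to 20.4% ± 7.1 in CAOV3 (adjusted p = 0.048). This call was lost in 11 other analyses and kept in 5. The CAOV3 libraries had 15.4% and 25.4%, so 1 of them met the listing limit, in the line where the site was highest. COV644 also has a low median outside DRACH, and the part of that background in this range was not tested. MAX kept its call among the 4 lines of higher background (range 9.27, adjusted p = 0.00036).

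**Figure D3:**
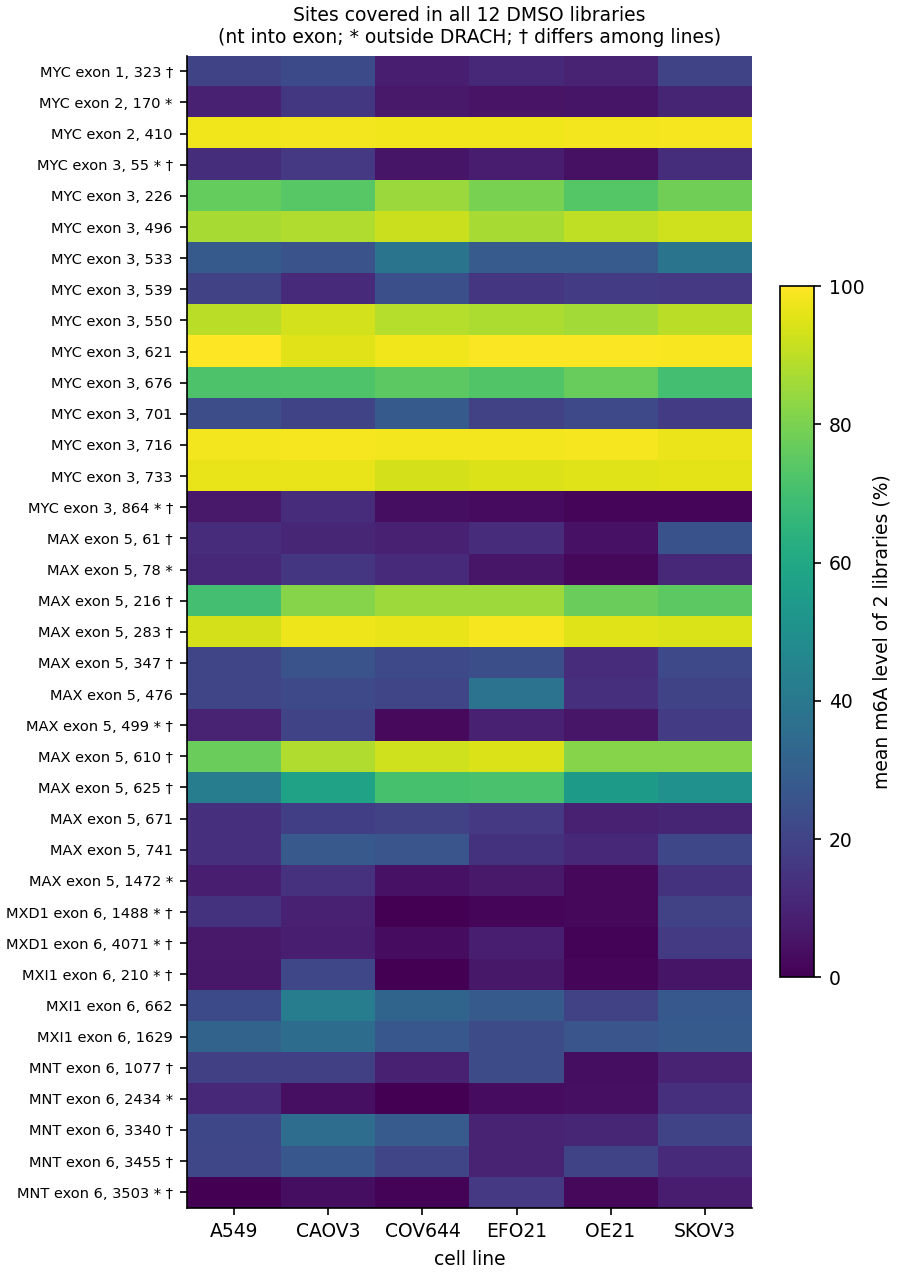
Mean m6A level (colour, %) of 2 libraries at the 37 sites with 20 reads in all 12 DMSO libraries (rows) in 6 lines (columns). The MYC site with the widest range among the highly methylated ones, exon 3 nt 226, goes from 73.8% in OE21 to 84.9% in COV644, and MAX exon 5 nt 625 goes from 41.9% in A549 to 71.1% in EFO21.

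For the repressors few sites had reads enough in all 12 libraries. MNT, over 5 sites, had 23.4% ± 0.096 in CAOV3, 17.8% ± 0.60 in A549, 16.0% ± 1.8 in COV644, 12.9% ± 1.5 in SKOV3, 11.98% ± 2.2 in OE21 and 11.1% ± 5.1 in EFO21 (adjusted p = 0.012). CAOV3 was above every library of the other lines. Its site at exon 6 nt 3340, in aaAct, ranged from 9.43% ± 1.7 in EFO21 to 35.8% ± 3.5 in CAOV3 (adjusted p = 0.00013). MNT nt 1077 and nt 3455 ranged over 19.2 and 16.8 points (adjusted p = 0.037 and 0.0094). The call of nt 1077 was lost in 9 other analyses and kept in 7, and that of nt 3455 was lost in 2 and kept in 15.

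MXI1, over 3 sites, was at 34.7% ± 6.3 in CAOV3 and 17.1% ± 0.95 in OE21 (adjusted p = 0.039), with the other 4 lines between 19.7% and 23.6%. This call was lost without any 1 of 7 libraries. Its called site at nt 210 is outside DRACH, at 21.2% ± 5.4 in CAOV3 and 0% in COV644 (adjusted p = 0.011). The CAOV3 libraries had 25% of 20 reads, exactly the listing limit, and 17.4%. A library of this comparison thus counted toward the listing of that site. MXD1 had 2 tested sites, nt 1488 and nt 4071, both outside DRACH and both called (adjusted p = 0.00048 and 0.021). Together they gave 18.8% ± 5.9 in SKOV3 and 1.66% ± 0.71 in OE21 (adjusted p = 0.0042). The lowest line means of MXD1 were those of COV644 and OE21, which also had the low medians outside DRACH, and the part of that background in them was not tested.

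In all, 17 of the 37 sites tested over the lines were called, beside 39.5% of all tested sites. Limma called 0 of the 37 and 946 of 68873 in all. Within the 4 lines of higher background 5 of 42 member sites were called, beside 6526 of 94682 in all. The listing also took any site that reached 25% in 1 library, which favours sites that differ between lines.

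Coverage, the sum of A or G reads over the listed sites of a gene, was compared next as a measure of how much of each mRNA was in the libraries. A read that spans several sites counts at each, so it is not a count of molecules, and in bulk RNA fewer expressing cells and less RNA per cell cannot be told apart. In CAOV3, MYC coverage was 49.3 and 50.8 TMM-normalised CPM with DMSO and 73.0 and 72.4 with STM3675. It rose by 0.54 on the log2 scale (SE 0.078, 1.45-fold, adjusted p = 0.00029, edgeR's quasi-likelihood test). Of all 12826 genes, 27% rose and 25.7% fell (3465 and 3301), with a median log2 fold change of -0.01. Without TMM scaling, 2692 rose and 4464 fell, and MYC was still higher (log2 0.43, adjusted p = 0.00126).

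By exon, the log2 difference of MYC reads, not tested, was 0.35 in exon 1, where the libraries overlap, 0.69 in exon 2 and 0.52 in exon 3. At 13 of the 17 tested sites both STM3675 libraries were above both DMSO libraries (31.7% of all tested sites), with site log2 differences from 0.03 to 1.06. The lowest was at the deepest site, nt 733 of exon 3, with 7.84 and 5.62 CPM with DMSO and 6.82 and 6.89 with STM3675. At nt 716, 17 nt away, they were 4.78 and 3.94, then 6.89 and 6.45. With the deepest site of each gene alone, MYC therefore had a log2 fold change of 0.00033 (adjusted p = 0.999), and the cause of this difference between sites was not tested.

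The partners of MYC went the other way or did not pass the test. MXD1 had 61.2 and 55.2 CPM with DMSO and 44.4 and 44.9 with STM3675, and it fell by 0.38 on the log2 scale (SE 0.087, adjusted p = 0.0043). MNT had 36.9 and 38.4, then 29.9 and 29.6, and fell by 0.34 (adjusted p = 0.012). MAX had 110 and 114, then 97.99 and 92.5, and fell by 0.24 (adjusted p = 0.022). None of the 3 falls was called when STM3675 replicate 1 or replicate 2 was left out, or with 1 site per gene (adjusted p 0.0634 to 0.279), whereas MYC stayed called without each library in turn (adjusted p at most 0.0129).

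MXI1 had 20.2 and 22.3 with DMSO and 22.7 and 22.3 with STM3675, overlapping groups (log2 0.08, adjusted p = 0.57). Without TMM scaling its value was -0.03, since log2 fold changes then shift by -0.11.

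**Figure D4:**
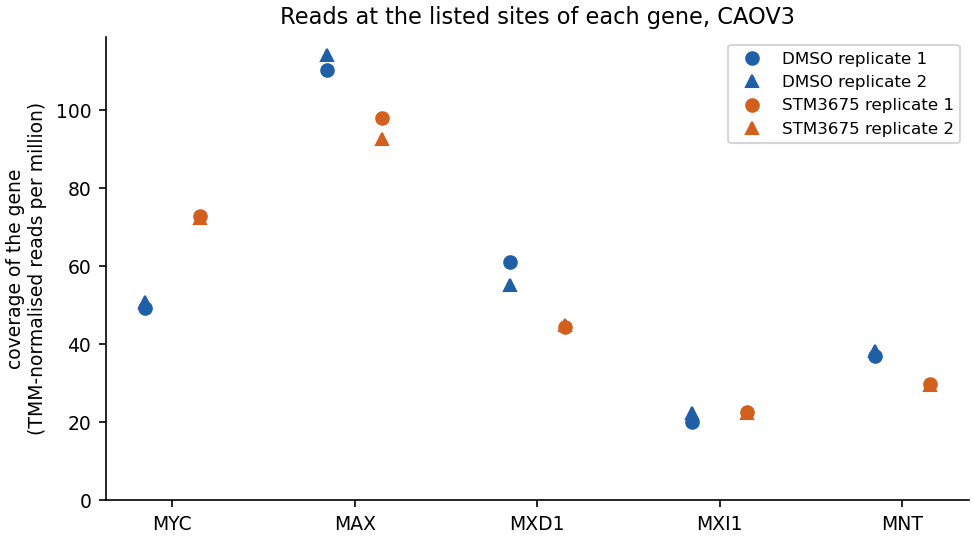
Coverage of each gene in CAOV3 (TMM-normalised CPM over its listed sites), with each library as a point. MYC lies near 50 with DMSO and near 73 with STM3675, MAX, MXD1 and MNT are lower with STM3675, and MXI1 overlaps.

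Across the lines, MYC coverage spread over 12.3-fold while its m6A level hardly moved. OE21 had 629 and 570 CPM, A549 334 and 323, EFO21 284 and 287, COV644 98.4 and 92.1, SKOV3 61.3 and 74.4 and CAOV3 48.1 and 49.3. No 2 neighbours in this order overlap. The log2 range of 3.62 (adjusted p = 6.0e-13, edgeR) compares with a median of 2.15 over all genes, 99.1% of which were called, so the call itself says little. These values were scaled over the 12 DMSO libraries and are not those of the CAOV3 comparison.

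MXD1 had a log2 range of 3.10, with 113 and 111 in OE21, 59.1 and 65.7 in COV644, 59.6 and 53.6 in CAOV3, 25.2 and 28.1 in EFO21, 12.7 and 16.8 in SKOV3 and 13.4 and 12.5 in A549 (adjusted p = 5.1e-11). OE21 thus led in both MYC and its repressor, while A549 was high in MYC and at the bottom in MXD1. MXI1 ranged over 2.30, with 86.0 and 90.8 in SKOV3, 84.1 and 73.6 in OE21 and, lowest, 19.9 and 16.0 in COV644. MNT ranged over 1.30 (OE21 83.6 and 74.3, A549 75.3 and 75.8, SKOV3 29.9 and 34.0). MAX, the shared partner, had the narrowest range of the 5, 0.71, from 108 and 111 in CAOV3 to 198 and 161 in OE21 (adjusted p = 0.00043). By position, the MGA sites had 150 to 396 CPM of all listed reads (not TMM-scaled), lowest in OE21 and highest in SKOV3.

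**Figure D5:**
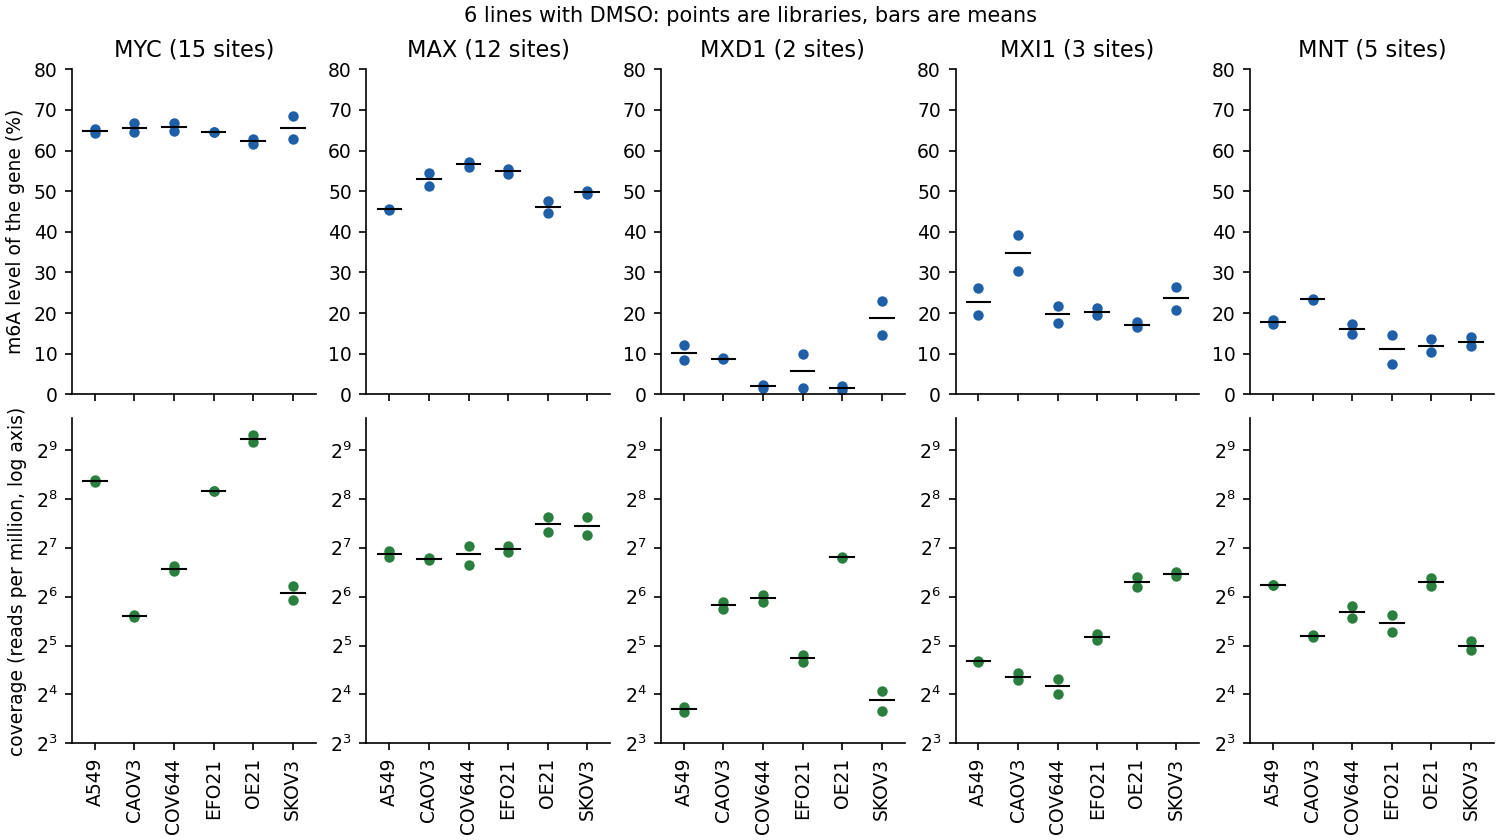
m6A level of the gene over sites with 20 reads in all 12 DMSO libraries (top, %) and coverage (bottom, CPM, log2 axis), for 5 genes in 6 lines; points are libraries and bars means. MYC is flat at 62.3% to 65.8% in the top panel and spreads from 48.7 to 600 in the bottom one.

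Genes whose pattern was most like that of MYC were sought over the 7 group means. In m6A, the closest of 4994 genes with at least 5 tested sites were PLEKHF2, GGA3 and VANGL1, with a root mean square difference of 1.38, 1.64 and 1.78 percentage points. In coverage, DHODH, TIMM9 and IGSF9B had the highest Pearson r with MYC (0.992, 0.987 and 0.984 over 7 groups, a description in which the CAOV3 groups share a line).

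The other genes around MYC were counted in lists, to be read against the 81.7% of all genes whose m6A was called lower with STM3675. No gene in them was called higher. In the wider family of MAX and MLX partners, 5 of 5 measured genes were lower (median DMSO level 38.5%), with differences of -31.9 for MXD3, -27.8 for MLXIPL, -25.3 for MLX and -25.2 percentage points for MXD4. MYCN has no measured site in CAOV3. Of the cofactors that MYC or the repressors recruit, 18 of 21 were lower, near the share of all genes. The largest fall among them was in HDAC2, a histone deacetylase (67.1% to 7.30%), and in CDK9, a kinase of transcription elongation (54.9% to 9.43%). SMARCB1 (14.5% and 13.6%, 4 of 18 sites in DRACH) and ACTL6A (9.93% and 12.1%, 0 of 5) were not called. All 10 measured subunits of the MGA complex were lower, beside 81.7% of all genes, with differences from -19.5 in RING1 and -20.6 in CBX3 to -42.1 in TFDP1 and -63.6 in YAF2.

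Among regulators of MYC protein turnover, 12 of 14 were lower, beside 81.7% of all genes. STUB1, a ubiquitin ligase, went from 78.7% to 9.82% and FBXL14 from 63.2% to 16.9%, whereas SKP2 (9.73% and 9.59%, 2 of 10 sites in DRACH) was not called. Of proteins that bind or destabilise MYC mRNA, 10 of 12 were lower, again near the 81.7% of all genes, led by the m6A readers YTHDF2 (70.1% to 11.8%) and YTHDF1 (57.3% to 10.1%). DHX9 (14.6% and 13.0%, 1 of 9 sites in DRACH) and HNRNPD (20.7% and 16.9%, 1 of 8) were not called. Their coverage rose in 4 and fell in 4 of 13 (27% and 25.7% of all genes), with a median log2 fold change of -0.11. YTHDF2 and IGF2BP2, chosen for coverage after their values were seen, had the largest rise and fall of the list. YTHDF2 coverage rose by 1.53 on the log2 scale (SE 0.070, adjusted p = 3.5e-07, edgeR) and IGF2BP2 coverage fell by 0.86 (adjusted p = 2.6e-05).

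Of 26 measured classical MYC target genes, 21 were lower in m6A, near the 81.7% of all genes, with a median DMSO level of 24.5% and a median difference of -15.7 points. LDHA (69.6% to 13.9%) and EIF4E (61.3% to 8.19%) fell most, and ODC1 (17.0% and 20.6%) and MCM7 (10.4% and 10.7%) were not called. In ODC1, 0 of the 2 tested sites lie in DRACH and the SD with STM3675 was 13.6, and in MCM7 2 of 10 lie in DRACH. The coverage of the targets rose in 4 and fell in 9 of 27 (27% and 25.7% of all genes), with a median log2 fold change of -0.12, beside -0.01 over all genes. Also chosen after their values were seen, POLR1B, a subunit of RNA polymerase I, rose by 1.14 (adjusted p = 1.5e-06) and PCNA, the replication clamp, fell by 0.60 (adjusted p = 0.00044).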

How the data were processed

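The authors deposited, per site and library, counts of reads with A or G, and the fraction of A among them. The submitters' processing notes name cutadapt, STAR and GRCh38; versions, the site caller and the handling of duplicates are not given in the sources here. Column names with D were taken for DMSO and those with T for treated. Fraction times count was whole within 1e-06, which gave A counts. The members and gene lists were chosen with earlier results of these data known. Sites with 20 reads in every library compared were tested by a logistic model with quasi-binomial dispersion, moderated by limma 3.58.1 (1 common value for all sites, 1.67 in CAOV3 and 1.71 over the lines), with Benjamini-Hochberg adjustment over all sites or genes and a threshold of 0.05. Genes were tested on A and G counts summed over tested sites. Coverage was tested with edgeR 4.0.16 (TMM, filterByExpr) in R 4.3.3; DESeq2 1.42.0, limma, replicate blocks, other read minimums, DRACH sites only, 1 site per gene and left-out libraries were alternatives. Sites shown with values were, for MYC, all tested DRACH sites, for other members the 4 highest tested DRACH sites in CAOV3, and the 3 widest ranging called sites over the lines; in each list the 2 most and 2 least negative m6A differences (1 gene that this gave is not reported here); a few others were chosen after their values were seen.

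On simulated data of the CAOV3 design, 200 of 185923 sites were changed. The test recovered 17% of those set to 0.5 of their m6A and 45% of those set to 0.25, with 0 unchanged sites called. In the data 35.2% of the tested sites were called lower, so the adjustment was stricter in the simulation. These shares therefore do not give the recovery in the data. Over the lines (200 of 68873 sites changed), 79% and 97% were recovered, with 13 unchanged sites called. For coverage in CAOV3 (12826 genes), 95% of 2-fold and 100% of 4-fold changes were recovered, with 11 unchanged genes called. For coverage over the lines (13704 genes) these were 82% and 98%, with 17 unchanged genes called. Replicates differed by more than counting noise in every group (chi-square per degree of freedom 1.63 to 4.57), so none were merged.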

Additional observations from a re-analysis of the deposited data

How the results depend on the processing

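The fall of m6A in MYC, MAX, MXD1, MXI1 and MNT in CAOV3 kept its direction and its call under all 10 alternatives. The range of MAX over the lines kept its call under all 18 alternatives of that comparison. With a minimum of 50 reads, 37156 of 64491 sites were lower and 350 higher in CAOV3, and 13 of 21 member sites were lower. Among the lines, 11747 of 18151 sites, 3436 of 5201 genes and 6 of 9 member sites differed. Fewer sites are tested there. With limma, 37 genes were higher in CAOV3, 946 sites differed among lines, 0 of them members, and the MNT range of 12.3 was no longer called. Among only the 4 lines of higher background, 6526 of 94682 sites, 5 of 42 member sites and 2712 of 9407 genes were called. MXD1 (13.1) and MXI1 (11.8) were not called there, nor was MXD1 with a minimum of 10 reads (9.78). With DRACH sites only, 3 genes were higher in CAOV3, the MXI1 range over the lines (14.3) was not called, and neither was the MXD1 coverage fall (-0.33). With sites that passed in another line, 18 genes were higher. With 1 site per gene, 1382 genes rose and 945 fell in coverage, and MYC (0.00033), MAX (-0.38), MXD1 (-0.48) and MNT (-0.39) were not called. Without TMM, MXI1 coverage turned to -0.028. The cause of these differences was not tested.

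Deviations of same-numbered replicates had r from -0.15 to 0.09 in m6A and from -0.65 to 0.68 in coverage, in coverage over 0.1 in some pairs of groups but not in every pair, so the numbers were not taken to pair the libraries; with a replicate block, 123 sites and 11 genes were higher in CAOV3, and MYC differed among lines (range 3.49, adjusted p = 0.0463). With 1 library left out in turn, the lone sample being assumed to vary like the others, member sites lower in CAOV3 numbered 18 to 27, sites higher 12 to 62 and genes higher 1 to 29. Genes with higher coverage were 2199 to 3987 and with lower coverage 1604 to 3839. The MYC range over the lines was 2.87 to 6.22 and that of MXI1 14.99 to 22.1. Coverage changes were -0.28 to -0.20 for MAX, -0.45 to -0.30 for MXD1 and -0.36 to -0.31 for MNT. MXI1 exon 6 nt 464 ranged from -9.78 to 5.87, turning to 5.87 without DMSO replicate 1 and 1.79 without STM3675 replicate 1, and MYC exon 1 nt 323 from -18.7 to 0.64, the latter without DMSO replicate 1. Depth limits the site tests: 85 of 156 sites had too few reads in CAOV3.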
